A study of Arabidopsis thaliana with 12 samples.

Results

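Of 6 nuclear genes for enzymes of plastid amino acid, sulfur, thiamine and lipid synthesis, 1 passed the test of stn7 against wild type. That gene was APS4 (AT5G43780), an ATP sulfurylase, with a transcript 1.87-fold lower in the samples of Arabidopsis thaliana titled stn7. Over all 3248 features 15.2% passed. The call of APS4 was lost in the values as deposited and in 5 of 6 fits with 1 averaged pair of samples left out. The transcripts of CBL, KARI, HISN4, THIC and FATB did not pass the test. The 6 genes were chosen by name, each through the 1 array probe whose annotation gives that gene alone, and all 6 were found among the 648 single-gene features and the 3248 features tested. KARI (AT3G58610, annotated by its locus only) is the ketol-acid reductoisomerase of branched-chain amino acid synthesis. HISN4 (AT4G26900, annotated as AT-HF) is the imidazole glycerol phosphate synthase of the histidine pathway. CBL (AT3G57050) is the cystathionine beta-lyase of methionine synthesis, THIC (AT2G29630) makes the pyrimidine part of thiamine, and FATB (AT1G08510) is an acyl-ACP thioesterase. Probe, promoter and protein sequences of these genes were not analysed here.

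The chloroplast is a biosynthetic organelle as well as the site of photosynthesis. It reduces sulfate, builds methionine precursors, branched-chain amino acids and histidine, makes thiamine, and carries out the de novo synthesis of fatty acids, drawing on ATP, reductant and carbon skeletons from photosynthesis. The enzymes of these pathways are encoded in the nucleus and imported into the plastid. STN7 is the kinase of the thylakoid membrane whose action on antenna proteins drives state transitions, and it is also known for a part in longer-term acclimation of gene expression.

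The series held total RNA of ecotype Columbia 0, hybridised to 1-channel arrays, in 6 samples titled WT (wild type) and 6 titled stn7, and the sources used here do not give the allele, plant age, tissue or growth conditions. The source name field called 5 of the stn7-titled samples WT and only sample 1 a mutant, and groups were taken from the titles. No probe with an annotation entry named STN7 (0 probes), so the mutated gene did not check the labels, and 0 of 12 marker genes for leaf, seed, root and senescent tissue had a single-gene probe, so the tissue was not checked either. Samples 1 and 2, 3 and 4, and 5 and 6 of each group deviated together from the group mean over all features (r between 0.188 and 0.632; the highest r with a sample outside the pair was 0.170), and each such pair was averaged, which left 3 replicates per group. Whether replicates were separate plants is not in the labels, and the p-values cover no more than the spread among these samples, which may be technical. In bulk tissue, fewer cells that express a gene and less RNA per cell cannot be told apart. Median deposited intensities of 0.297 to 0.369 in WT compared with 0.354 to 0.414 in stn7, and the number of arrays limits the precision. Differences are log2 differences of quantile-normalized intensities, stn7 minus WT, with a floor of 0.0702 (-3.83 on the log2 scale) under low values.

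The study's single comparison sets the mutant against the WT. In limma with Benjamini-Hochberg adjustment over all features, 15.2% of the 3248 features passed an adjusted p of 0.05, made up of 8.68% lower and 6.53% higher in stn7. Of the 6 genes 1 passed, APS4, which was lower. The count of 1 in 6 is therefore near the share over the whole array. The median difference over the 6 genes was 0.03 log2, beside 0.05 log2 over all features.

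**Figure D1:**
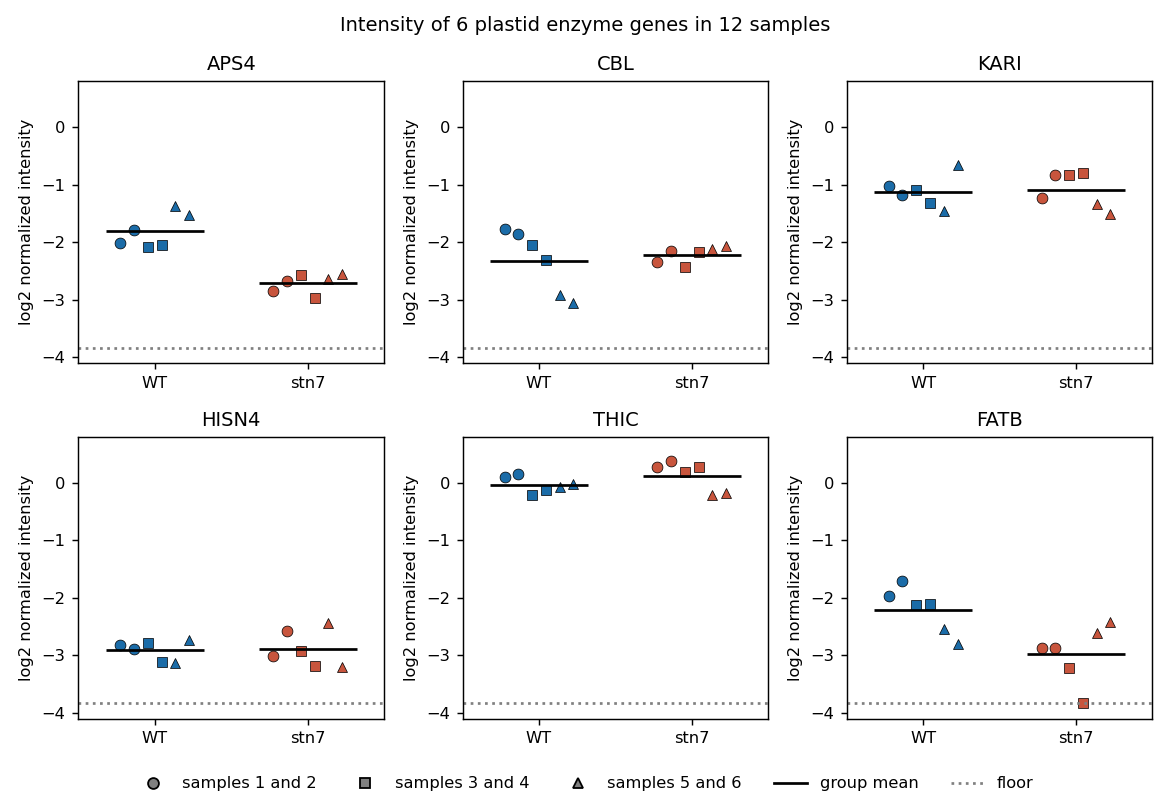
Log2 normalized intensity (vertical axis) of the 6 genes in the 6 WT and 6 stn7 samples. Marker shapes show which consecutive samples were averaged, black lines are group means and the dotted line is the floor of -3.83; only for APS4 do all stn7 samples lie below all WT samples.

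Sulfate assimilation begins when ATP sulfurylase joins sulfate to ATP, and APS4 is one of several plastid isoforms of this enzyme. In the 6 WT samples the normalized intensity of APS4 ran from 0.235 to 0.387 with a median of 0.269. In the 6 stn7 samples it ran from 0.127 to 0.171 with a median of 0.158. All 6 stn7 samples thus lay below all 6 WT samples, as was the case for 11.3% of all features. The 3 averaged replicates of stn7 lay below those of WT for 17.9% of features and above them for 20.8%. WT samples 5 and 6 were the highest, and the stn7 samples lay close together. The averaged replicates stood at -1.90, -2.07 and -1.45 log2 in WT and at -2.76, -2.78 and -2.60 log2 in stn7. The group means were -1.81 ± 0.32 log2 (SD, n = 3) in WT and -2.71 ± 0.10 log2 (SD, n = 3) in stn7. The difference of -0.91 log2 (SE 0.19, 95% interval -1.35 to -0.46) passed the test (limma, adjusted p = 0.0259).

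The fall of APS4 kept its direction under every setting that gave it a value, but not always its call. As all 6 stn7 samples lay below all 6 WT samples, leaving samples or replicates out could not change the direction. In the values as deposited, without scaling between arrays, the APS4 difference was -0.71 log2 (SE 0.21, limma adjusted p = 0.0589), while the median difference of all features rose from 0.05 to 0.19 log2. With 1 averaged replicate left out the call was lost in 5 of 6 cases. These were the cases without WT replicate 1 (-0.95 log2, adjusted p = 0.0774), WT replicate 2 (-1.04 log2, 0.0526), stn7 replicate 1 (-0.88 log2, 0.0877), stn7 replicate 2 (-0.87 log2, 0.0674) and stn7 replicate 3 (-0.96 log2, 0.0523). Over all features these 5 fits called 45, 30, 4, 284 and 218, in that order, against 494 with all replicates. Without WT replicate 3, which holds the 2 brightest samples, the difference was smallest, at -0.73 log2. It passed there (limma, adjusted p = 0.0437), with 272 features called. With only sample 1 of stn7 left out, the one named a mutant in its source, APS4 stood at -0.88 log2 (adjusted p = 0.0338).

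**Figure D2:**
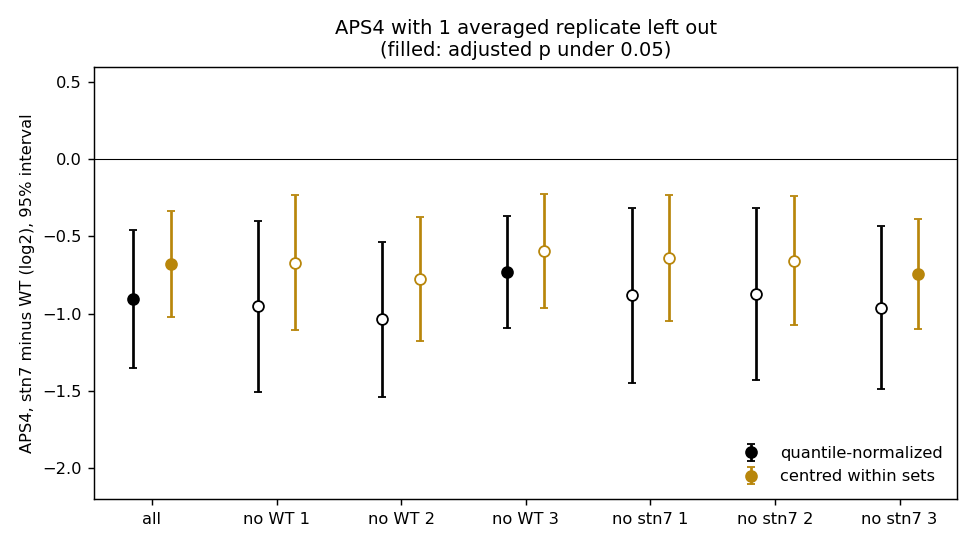
Difference of APS4 between stn7 and WT (log2, vertical axis) with its 95% interval, with all averaged replicates and with each left out in turn. Black points are quantile-normalized values and gold points are values centred within probe-number sets; open points did not pass an adjusted p of 0.05, and all intervals lie below 0.

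CBL acts later in sulfur metabolism and cleaves cystathionine to homocysteine, the precursor of methionine. Its normalized intensity ran from 0.120 to 0.295 in the WT samples (median 0.221) and from 0.184 to 0.239 in the stn7 samples (median 0.224). The stn7 range lay wholly inside the WT range. WT samples 5 and 6, at 0.133 and 0.120, were the lowest of all 12 and WT samples 1 and 2, at 0.295 and 0.275, the highest. The averaged WT replicates therefore had an SD of 0.60 log2, against 0.11 log2 in stn7 and a median within-group SD of 0.21 log2 over all features. The difference of 0.11 log2 did not pass (SE 0.29, limma adjusted p = 0.833), and its 95% interval of -0.56 to 0.77 log2 corresponds to ratios of stn7 to WT between 0.680 and 1.71.

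The WT spread of CBL moved with its probe number. Across this array, differences varied with the probe number in a repeating cycle, which was divided into 48 sets of 6 numbers. These sets were chosen with earlier results of these data known. The WT replicates of CBL deviated by 0.51, 0.14 and -0.66 log2 from their mean, and the median deviations of the other 71 features in its set were 0.48, 0.06 and -0.49 log2. After each sample was centred within the sets, the WT SD of CBL was 0.14 log2 and the difference 0.26 log2 (SE 0.13, 95% interval -0.05 to 0.57, adjusted p = 0.269).

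KARI converts acetohydroxy acids to dihydroxy acids in the synthesis of valine, leucine and isoleucine. Its normalized intensity ran from 0.363 to 0.637 in WT (median 0.455) and from 0.351 to 0.578 in stn7 (median 0.495). Both extremes of the WT range came from samples 5 and 6, which are averaged with each other. Among the stn7 samples 2, 3 and 4 were the brightest and 5 and 6 the dimmest. The groups overlapped, and the difference of 0.03 log2 (SE 0.19, 95% interval -0.40 to 0.47) did not pass (limma, adjusted p = 0.928). The next enzyme of the pathway, the dihydroxyacid dehydratase DHAD (AT3G23940), was the only other measured gene of the 18 on the branched-chain list. Its intensity ran from 0.569 to 0.673 in WT and from 0.697 to 0.853 in stn7. All 6 stn7 samples of DHAD lay above all 6 WT samples, as did those of 10.7% of all features, but its difference of 0.26 log2 did not pass (SE 0.14, limma adjusted p = 0.243). In the set of DHAD the other features had a median difference of 0.19 log2, and set centring left it at 0.07 log2.

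HISN4 closes the imidazole ring of histidine and releases the precursor that returns to purine synthesis. Its normalized intensity ran from 0.114 to 0.151 in WT (median 0.138) and from 0.109 to 0.184 in stn7 (median 0.128). Both the highest and the lowest values of the gene came from stn7 samples, 5 and 6, which are averaged with each other. The group means were -2.91 ± 0.05 log2 (SD, n = 3) in WT and -2.89 ± 0.15 log2 (SD, n = 3) in stn7. The difference of 0.02 log2 (SE 0.14, 95% interval -0.31 to 0.36, limma adjusted p = 0.939) was the smallest of the 6, and its interval the narrowest. It was the only single-gene probe among the 11 genes of the histidine list.

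THIC is the plastid enzyme that turns a purine intermediate into the hydroxymethylpyrimidine part of thiamine, whose diphosphate is the cofactor of pyruvate dehydrogenase and transketolase. Its normalized intensity ran from 0.858 to 1.11 in WT (median 0.961) and from 0.859 to 1.30 in stn7 (median 1.17). The stn7 samples 1 to 4 lay above every WT sample, whereas stn7 samples 5 and 6, at 0.859 and 0.888, lay at the low end of the WT range. The averaged stn7 replicates accordingly stood at 0.33, 0.23 and -0.20 log2, and those of WT at 0.12, -0.17 and -0.06 log2. The difference of 0.15 log2 did not pass (SE 0.18, 95% interval -0.28 to 0.58, limma adjusted p = 0.610). Other features of its set had a median difference of -0.20 log2, and after set centring THIC stood at 0.42 log2 (SE 0.19, adjusted p = 0.201). When each probe was centred on its 12 neighbours on either side, THIC passed at 0.50 log2 (limma, adjusted p = 0.0408), as did 15.7% of all features, while with arrays centred on their median it stood at -0.05 log2 (adjusted p = 0.908). THIC was the only measured gene of the 6 on the thiamine list.

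FATB releases saturated fatty acids, chiefly palmitate, from acyl carrier protein and so sets how much of the chain leaves the plastid in that form. Its normalized intensity ran from 0.143 to 0.307 in WT (median 0.231) and from 0.0228 to 0.186 in stn7 (median 0.137). Of the 6 stn7 samples 4 lay below the lowest WT sample, while stn7 samples 5 and 6 overlapped WT samples 5 and 6. Sample 4 of stn7 was below the floor, the only such value among the 72 of the 6 genes, and it was set to the floor. The group means were -2.21 ± 0.43 log2 (SD, n = 3) in WT and -2.97 ± 0.51 log2 (SD, n = 3) in stn7. The difference of -0.77 log2 was close in size to that of APS4 but had an SE of 0.31 and did not pass (95% interval -1.48 to -0.05, limma adjusted p = 0.133). A brighter probe, annotated to FATB together with the FATA thioesterase genes, had a WT mean of -0.51 log2 and differed by 0.05 log2 (SE 0.19). Which of these genes it binds was not tested. FATB passed when the 12 samples were taken as separate (limma, adjusted p = 0.0208), where 39.5% of all features passed. It also passed with neighbour centring (-0.69 log2, limma adjusted p = 0.0439), where 15.7% passed. It did not pass with consecutive samples as a random block (adjusted p = 0.0845) or after set centring (-0.40 log2, adjusted p = 0.308). Other features of its set had a median difference of -0.30 log2, and 14 of these 70 features were called lower and 0 higher. A second lipid gene, the ketoacyl-ACP reductase KAR (AT1G24360), differed by -0.26 log2 (SE 0.28, limma adjusted p = 0.569), with 3 of its 6 stn7 samples at the floor.

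**Figure D3:**
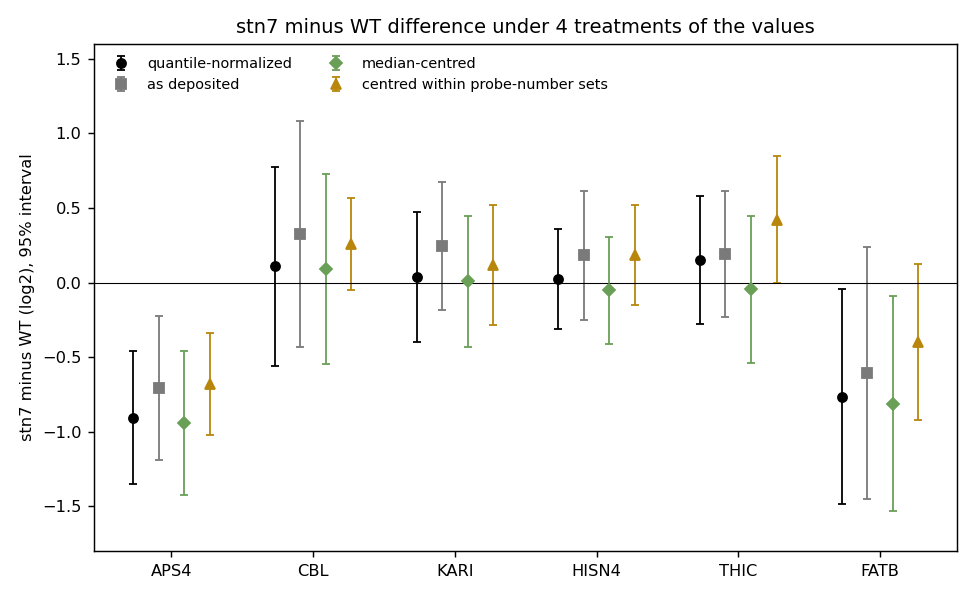
Difference between stn7 and WT (log2, vertical axis) with its 95% interval for each of the 6 genes, from quantile-normalized values, values as deposited, median-centred arrays and values centred within probe-number sets. The interval of APS4 lies below 0 in all 4, that of FATB in 2, and those of the other genes hold 0 throughout or, for THIC after set centring, reach it.

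Over all 6 pathway lists, 9 of 111 genes had a single-gene probe, 1 of the 9 was called lower (APS4) and 0 higher, and their median difference was 0.03 log2. Before adjustment, limma put 2 of the 9, APS4 and FATB, under 0.05, as it did 32.4% of all features. A further gene of the 9 was DAPE (AT3G53580), the diaminopimelate epimerase of lysine synthesis. All 6 WT samples of DAPE were at the floor and so were 2 of the 6 stn7 samples, so its difference of 0.40 log2 (limma adjusted p = 0.248) rests on the floor. None of the other 3 plastid ATP sulfurylase genes of the list, nor any gene for APS reductase or sulfite reductase, had a single-gene probe, so the fall of APS4 could not be compared with its pathway beyond CBL.

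A ratio between 2 genes within an array stays the same when the whole array is multiplied by a factor, so ratios set APS4 against the others without scaling. In deposited intensities, floored at their own 10th percentile, the log2 ratio of APS4 to HISN4 was 1.07 ± 0.35 (SD, n = 3) in WT and 0.18 ± 0.14 (SD, n = 3) in stn7. The ratio of APS4 to KARI went from -0.71 ± 0.24 to -1.66 ± 0.48 log2. The ratio of APS4 to THIC went from -1.88 ± 0.31 to -2.78 ± 0.52 log2, a difference of -0.90 log2. That of APS4 to CBL went from 0.51 ± 0.86 to -0.53 ± 0.09 log2, a difference of -1.04 log2. In quantile-normalized values the difference in the ratio to CBL was -1.01 log2, and -0.51 log2 without averaged WT replicate 3. In these 4 of 5 ratios the highest stn7 replicate was under the lowest WT replicate, and the 4 share the values of APS4. The ratio of APS4 to FATB differed by -0.10 log2 and overlapped, and it rests in part on the 1 floored value of FATB. Only 1 of the 10 ratios without APS4 did not overlap, CBL to FATB, which was higher in stn7 by 0.93 log2. The size of this difference rests in part on that floored value too. The lowest stn7 ratio, at 0.38 log2, and the highest WT ratio, at 0.01 log2, came from other samples. The share of non-overlapping ratios among other genes of the array was not computed. For single features the 3 stn7 replicates lay below those of WT in 17.9% and above them in 20.8%. The ratios are a description and were not tested.

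The position of each probe in its array gives the signal a rank that such a factor does not change, but probes differ in how strongly they bind, so it does not order the transcripts by abundance. THIC was bright, between the 80.8th and 88.4th percentile of the deposited intensities in all 12 samples. KARI lay between the 48.8th and 72.1st percentile. CBL lay between the 15.6th and 41.3rd percentile, and HISN4 between the 14.0th and 24.9th. APS4 had percentiles of 33.0 to 52.9 in WT and 16.5 to 22.8 in stn7, without overlap. FATB had percentiles of 18.6 to 43.0 in WT and 6.59 to 25.3 in stn7. By mean log2 level APS4, CBL, HISN4 and FATB, 4 of the 6, lay in the lowest 25% of features, APS4 at the 24.4th percentile. Signal over background is not known for these values.

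**Figure D4:**
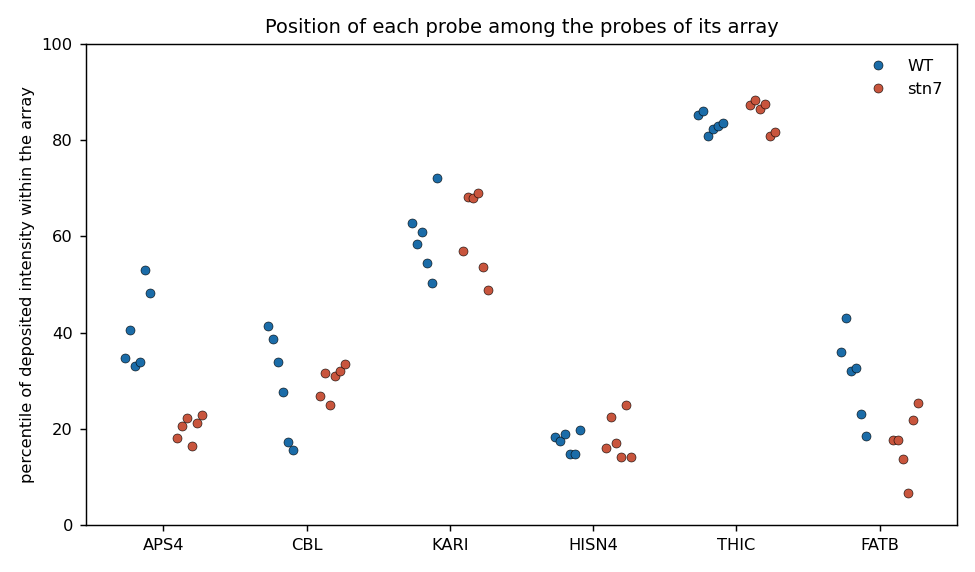
Percentile of the deposited intensity of each probe among the 3437 probes of its array (vertical axis), for the 6 WT (blue) and 6 stn7 (red) samples of each gene. APS4 separates the groups, FATB overlaps in part, and THIC stays above the 80th percentile in both groups.

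Over all features, 38.6% of the variance in difference was between probe-number sets (adjusted r2), with set medians between -0.62 and 0.63 log2. As the sets were chosen with earlier results of these data known, this share is a description. All 6 genes lay in sets with a negative median of the other features, between -0.04 log2 for KARI and -0.30 log2 for FATB. In the set of APS4 the other 63 features had a median difference of -0.15 log2, and 9 were called lower and 1 higher. After set centring APS4 stood at -0.68 log2 (SE 0.15, 95% interval -1.02 to -0.34) and passed (limma, adjusted p = 0.0380), as did 5.67% of all features, including 3.88% that were lower. The other 5 genes did not pass, and CBL, KARI, HISN4 and THIC all had positive differences after set centring, between 0.12 and 0.42 log2. With set centring and the replicate block together APS4 missed the threshold (adjusted p = 0.0522). With set centring and 1 averaged replicate left out it passed in 1 of 6 fits (limma, adjusted p from 0.0474 to 0.141). Those fits called between 12 and 131 features, against 184 with all replicates. What the probe number stands for was not tested.

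**Figure D5:**
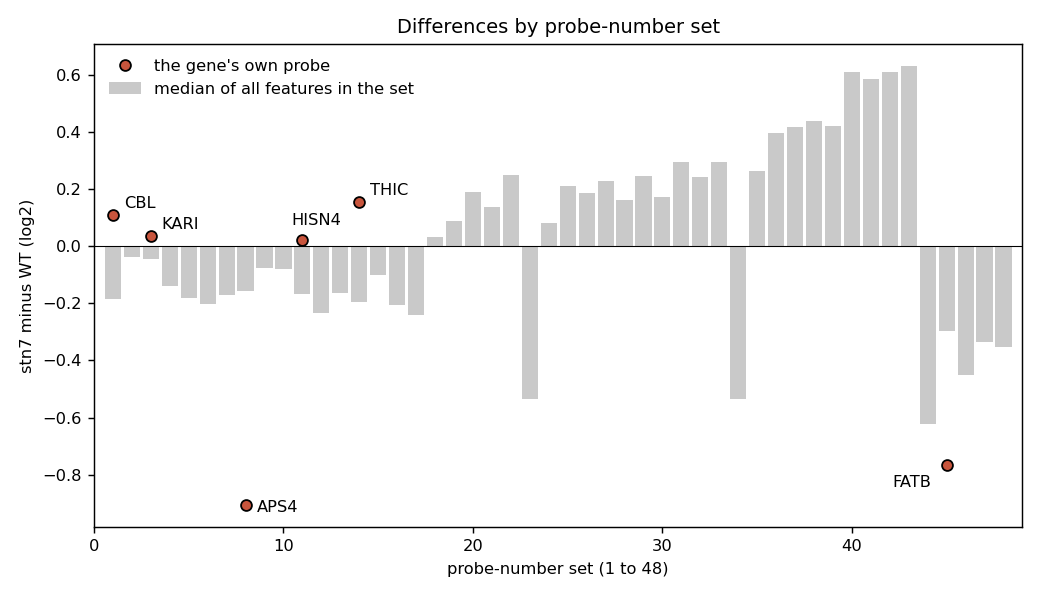
Median difference between stn7 and WT (log2, vertical axis) of all features in each of the 48 probe-number sets (grey bars), with the difference of each of the 6 genes at its own set (red points). APS4, at -0.91, lies far below the median of its set, while the set medians of all 6 genes are below 0.

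The 6 genes did not vary as 1 group over the samples. Pearson correlations of deviations from the group means over the 12 samples ran from -0.66 (APS4 with CBL) to 0.64 (CBL with FATB) over the 15 pairs, and consecutive samples share their deviations. CBL and FATB, both low in WT samples 5 and 6, lie in probe sets 1 and 45, whose other features deviated by -0.49 and -0.28 log2 in that averaged replicate. In the same replicate APS4 deviated by 0.36 log2 and CBL by -0.66 log2. The other features of their sets had median deviations of 0.18 and -0.49 log2. The correlations that follow were taken over log2 values that keep the difference between the groups, unlike the deviations above. Their r therefore also holds that difference. Among the other 647 single-gene features, the log2 values over the 12 samples most like those of APS4 were of AT1G11800 (r = 0.94), AT4G25290 (r = 0.94) and AT2G39000 (r = 0.92), with differences of -0.80, -1.42 and -1.70 log2. For FATB they were CHL (AT3G47860, r = 0.90), AT2G34450 (r = 0.89) and AT2G37580 (r = 0.88). For CBL they were AT4G24750, AT2G37000 and AT1G08845, each with r = 0.90. AT1G08845 is in probe set 1, that of CBL, and AT2G37000 is in set 45, that of FATB. AT2G34450 is in set 1 too. None of these values was centred within the sets, and how far likeness follows the probe number was not tested. The closest to THIC was AT3G52960 (r = 0.90), followed by AT3G61870 (r = 0.86) and AT1G62780 (r = 0.83). KARI and HISN4 had no such close match, with AT5G23540, AT5G49120 and AT5G56070 at r of at most 0.71 for KARI and AT5G19210, AT1G73090 and AT3G19370 at r of at most 0.70 for HISN4.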

How the data were processed

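Values came from 1 table with a column per sample. Per the labels, samples were hybridised as 1-channel arrays of total RNA; the deposited table gives linear intensities of at least 0, and the sources used here do not state the authors' scanner, background correction or scaling. Of 3439 probes 3437 had values, of which 692 had 1 annotated gene, 869 several and 1876 no entry. Of the 692 genes 690 were found by gene identifier in the RefSeq table of assembly TAIR10.1.

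Arrays were quantile-normalized, values under the 10th percentile were set to it, log2 was taken, and 188 probes that reached the floor on every array were dropped. Probes of 1 locus and consecutive samples of a group were averaged. All 3248 features were fitted with limma 3.58.1 (lmFit, eBayes) in R 4.3.3, without a replicate block, two-sided, called at a Benjamini-Hochberg adjusted p under 0.05. The fit was tested on simulated data. Figures used matplotlib 3.10.9 in Python 3.11.15.

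Named are the 6 genes, every other list gene with a single-gene probe, and for each of the 6 genes the 3 single-gene features of highest Pearson correlation. The genes, lists, averaging, floor and probe-number sets were chosen with earlier results of these data known. Alternatives covered scaling, floor, filter, variance model, separate samples, replicate block, probe number, left-out samples and replicates, and source names. The set centring with sets shifted by 1 number was added after seeing the data.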

Additional observations from a re-analysis of the deposited data

How the results depend on the processing

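APS4 was negative under all 39 alternatives that gave it a value and passed in 26. It passed in all 12 fits with a single sample left out, where the other sample of the pair stood for the replicate. With an averaged replicate left out it passed in 1 of 6 fits, and in 1 of 6 after set centring. In the other settings it passed in 12 of 15, some of which took the 12 samples as separate. Its stn7 replicates lay below those of WT before and after set centring, so leaving any out could not change the sign. FATB was negative in all 39 and passed in 3, THIC passed in 1 of 40, and CBL, KARI and HISN4 passed in 0. CBL, KARI and HISN4 changed sign in 3, 7 and 9 alternatives, never with a call. A floor at the 5th percentile, which was 0, could not be run. Leaving out the lowest 25% of features removed APS4, CBL, HISN4 and FATB, so 0 of the 6 genes and 0 of the list genes were called there. In the values as deposited APS4 was at -0.71 log2 and 0 of the 6 genes and 0 list genes were called. With stn7 sample 1, the only one named a mutant in its source, set alone against the 6 WT-titled samples and assumed to vary like them, APS4 was at -1.04 log2 (adjusted p = 0.154), 8 features were called, and 0 genes of either kind; the other 5 stn7-titled samples were left out of that fit, not counted as WT. With 12 separate samples 1283 features were called, FATB passed at -0.77 log2, and 2 of the 6 and 3 list genes passed. The sample number as a replicate block gave 1442 features, FATB at -0.77 log2, and again 2 and 3 genes. FATB did not pass with consecutive samples as a random block (adjusted p = 0.0845, 671 features called) or with the block on averaged replicates (adjusted p = 0.162). The share of higher among called features was 42.9% as reported, 61.8% as deposited, 27.7% with median centring and 37.0% with cyclic loess.

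Set centring gave 184 features, and 210 with sets shifted by 1 number, where APS4 stood at the same -0.68 log2. With set centring and a replicate block 117 features, 0 of the 6 genes and 0 list genes were called, and APS4 was at -0.68 log2. Centring on 12 neighbours called 509 features and 3 of the 6 genes, APS4, THIC (0.50 log2) and FATB (-0.69 log2), and 3 list genes. Averaged replicates with the same number correlated at 0.171, 0.120 and 0.0901 across groups, each highest for its own number. The highest r with another number was -0.0820, -0.0402 and -0.0126. As 1 was under 0.1, the numbers were not taken as pairs, and the main fit does not model what same-number replicates share. The replicate block on averaged replicates gave 407 features and kept APS4 (limma, adjusted p = 0.0329).

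Over all fits with a sample or averaged replicate left out, with and without set centring, APS4 ran from -1.04 to -0.59 log2, the array count from 4 (without averaged stn7 replicate 1) to 493, and both counts of genes from 0 to 1. Each of the 12 single samples left out kept the call of APS4. The cause of these changes was not tested. Signal over background, which limits dim probes, is not known.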

Other observations

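Some genes of these pathways were on probes annotated to several genes. A probe annotated to FATB together with AT4G13050 and FaTA, the FATA thioesterases, differed by 0.05 log2 (SE 0.19, limma adjusted p = 0.893), against -0.77 log2 for the probe of FATB alone. A probe annotated to both FATA genes differed by -0.03 log2 (SE 0.22, adjusted p = 0.941).

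Of 3 pairs of probes annotated to the same 2 genes of these lists, 2 pairs had differences of opposite sign above 0.5 log2 in size. Of 2 probes annotated to both HISN5B and IGPD, imidazole glycerol phosphate dehydratases of histidine synthesis, 1 was lower in all 3 stn7 replicates (-0.53 log2, SE 0.21, adjusted p = 0.125) and the other higher in all 3 (0.66 log2, SE 0.24, adjusted p = 0.104). Over all features 17.9% had all 3 averaged stn7 replicates below and 20.8% above all 3 of WT. The WT means of these probes were 0.26 and -3.08 log2. After set centring they stood at -0.45 log2 (adjusted p = 0.131) and 0.87 log2 (adjusted p = 0.0471). Of 2 probes annotated to both AT5G10160 and AT2G22230, hydroxyacyl-ACP dehydratases of fatty acid synthesis, 1 differed by 0.66 log2 (adjusted p = 0.119) and the other by -0.53 log2 (adjusted p = 0.154), with a correlation of -0.84 between them over the 12 samples. The other features of their sets had median differences of 0.19 and -0.23 log2. After set centring the 2 probes stood at 0.47 log2 (limma, adjusted p = 0.283) and -0.22 log2 (adjusted p = 0.389). The third pair, annotated to both AT5G11880 and AT3G14390, differed by -0.12 and 0.13 log2 (adjusted p = 0.715 and 0.728), and the groups overlapped in both. After set centring this pair had the same sign, at -0.30 and -0.50 log2 (limma, adjusted p = 0.333 and 0.158). None of these 6 passed before set centring, and which gene each probe binds was not tested.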
